A study of Homo sapiens with 18 samples.

Results

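PEA2 and PEO1 are established human ovarian cancer cell lines from different tumours, both high-grade serous carcinomas. PEA2 is the platinum-resistant member of its pair and was taken from ascites after relapse, while PEO1 is the platinum-sensitive member of its own pair. The comparison described here uses 6 of the 18 ATAC-seq libraries of the study, 3 from PEA2 and 3 from PEO1, and asks what separates a resistant line and a sensitive line of another tumour whose accessibility moves alike within their pairs. The partners, PEA1 (sensitive, from the PEA2 tumour before platinum) and PEO4 (resistant, from the PEO1 tumour), have 3 libraries each and are used as a second pair of unrelated lines. PEO1 and PEO4 were both taken after platinum-based therapy. All 4 lines were grown in RPMI-1640 with glutamine and 10% fetal bovine serum, and no drug is named for these libraries. Each line comes from 1 tumour, so resistance and the tumour of origin cannot be told apart in any difference between PEA2 and PEO1. Nothing in the sources used here says that the 3 libraries of a line came from separate cultures, so the p-values measure only the spread between these libraries, which may be technical.

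ATAC-seq measures open chromatin with a transposase that cuts and tags DNA where nucleosomes leave it exposed. Promoters of active genes and distal enhancers are the main open sites, and distal sites differ more between cell states than promoters do. Many enhancers of epithelial and carcinoma cells hold the AP-1 site, which is bound by dimers of FOS and JUN proteins. The signal of a window also scales with the number of DNA copies of it, and copy number is often altered in serous carcinoma. The assay counts reads and does not separate more open chromatin from more copies.

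The values are FPKM (reads scaled by window length and library size) in windows of 1 kb, given here with the hg19 positions of the deposited table. Of 89428 windows, 81609 had a mean over 1 FPKM in the 6 libraries and were tested. The FPKM were whole multiples of 1 read in 100% of values, which put the depth at 17282880 to 22514948 reads in PEA2 and 8963079 to 11449840 in PEO1. The share of reads that fell in the windows was 17.1% to 20.7% in PEA2 and 38.9% to 40.8% in PEO1, with no overlap. On the deposited scale the median log2 difference, PEA2 minus PEO1, was -1.03 over all tested windows. After quantile normalisation of log2(FPKM + 0.1) it was -0.17, and differences are given on that scale unless a sentence says otherwise. Whether the different shares of reads in windows play a part in any result below was not tested. Library pairs of 1 line had Spearman correlations of 0.90 to 0.95, and a pair made of 1 PEA2 and 1 PEO1 library had 0.22 to 0.24. Over the mean levels of the lines, PEA2 and PEO1 had a Spearman correlation of 0.23, against 0.48 for PEA2 with its partner PEA1 and 0.74 for PEO1 with PEO4, as a description over windows, which are not independent of each other.

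PEA2 and PEO1 nevertheless shared a set of windows that were high in both and low in both partners, and the sequences that the rest of the text refers to are shown first. The windows are from the 6 in which the smaller of the pair shifts was largest, at least 1 Mb apart and with 1 chromosome left out of the choice, and 5 of the 6 held the AP-1 letters TGANTCA. The N stands for any base, so TGAATCA and TGATTCA count beside TGACTCA and TGAGTCA, the words of the AP-1 consensus. Each line gives 61 bases of GRCh37, plus strand, with 1 match in capitals. The TAS2R41 line marks TGATTCA and also holds TGACTCA in small letters.
near EFNA5, chr5:106209503-106209563: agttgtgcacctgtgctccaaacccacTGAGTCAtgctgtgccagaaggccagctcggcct
near TBC1D22A, chr22:47724774-47724834: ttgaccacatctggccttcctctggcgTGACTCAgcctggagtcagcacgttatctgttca
near TAS2R41, chr7:143169580-143169640: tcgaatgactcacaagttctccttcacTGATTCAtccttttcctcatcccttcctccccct
near SLC10A2, chr13:104759883-104759943: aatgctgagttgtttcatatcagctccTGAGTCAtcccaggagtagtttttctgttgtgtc
intron of CYB5R4, chr6:84577436-84577496: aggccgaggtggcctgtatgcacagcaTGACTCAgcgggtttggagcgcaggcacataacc

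Among windows that separate the lines, the same letters were present in some and absent in others, and 1 of each direction is shown for comparison. The first is in an intron of CCNJL and was higher in PEA2, and its match is TGAATCA, which is not a consensus word. The second lies between genes, with TAFA2 the nearest, and was higher in PEO1.
intron of CCNJL, chr5:159688201-159688261: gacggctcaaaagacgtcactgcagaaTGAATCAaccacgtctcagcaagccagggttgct
near TAFA2, chr12:61676721-61676781: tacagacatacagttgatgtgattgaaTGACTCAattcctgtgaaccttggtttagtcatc

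PEA2 and PEO1 differed at about 1 window in 6, in both directions. A window was called where the log2 difference was over 2 and the adjusted p of limma (Benjamini-Hochberg over all windows) was under 0.001. There were 8324 windows called higher in PEA2 (10.2% of those tested) and 6344 called higher in PEO1 (7.77%), together 14668 (18%). The libraries of the lines did not overlap at many more windows, 27112 higher in PEA2 (33.2%) and 33531 higher in PEO1 (41.1%), together 74.3%. The split between the directions rested on the scaling, the filter and the thresholds. The deposited FPKM gave 4654 higher in PEA2 and 16538 higher in PEO1 and removal of the median of each of 10 GC classes gave 9460 and 4804. A pseudocount of 1 gave 1813 and 847, a mean over 5 FPKM gave 190 and 833, and thresholds of log2 over 1 and adjusted p under 0.05 gave 17597 and 20081.

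**Figure D1:**
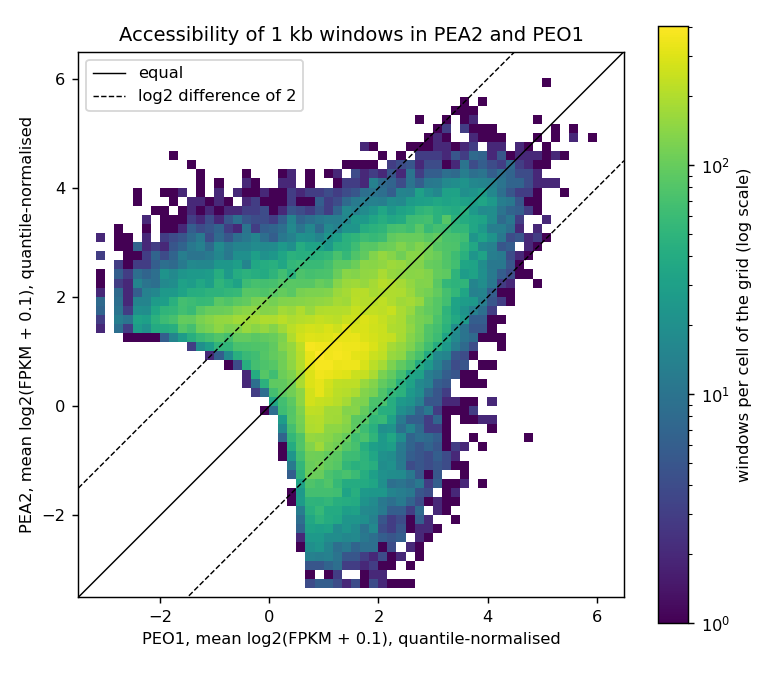
Mean log2(FPKM + 0.1) after quantile normalisation of each of the 81609 tested windows in PEO1 (x axis) and PEA2 (y axis), with the number of windows per cell of the grid on a log colour scale. The solid line marks equal levels and the broken lines a log2 difference of 2, and windows lie far outside the broken lines in both directions, 8324 of them called higher in PEA2 and 6344 called higher in PEO1.

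The called windows were mostly distal. Promoter windows (up to 1 kb before and 100 bp after a transcription start) were 20.4% of tested windows, but 4.16% of those called higher in PEA2 and 8.58% of those called higher in PEO1, the latter 18.6% with median centring. Intergenic windows were 36.5% of tested windows, 45.8% of those called higher in PEA2 and 52.7% of those called higher in PEO1. By class, 2.08% of promoter windows and 12.8% of intergenic windows were called higher in PEA2, and 3.27% and 11.2% were called higher in PEO1. Windows at transcript ends were the most lopsided class, with 16% called higher in PEA2 and 3.64% called higher in PEO1. CpG-rich windows (GC over 50% and an observed to expected CpG ratio over 0.6) were called at 2.11% and 2.92%, against 12.9% and 9.39% of other windows. The windows higher in PEO1 lay farther from a start, with a median distance of 102 kb against 41.2 kb, and had a lower median GC content, 43.0% against 48.8%.

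In windows called higher in PEA2 the median of the deposited levels was 2.67 FPKM in PEA2 and 0.522 in PEO1, with 0.888 in PEA1 and 0.540 in PEO4. In windows called higher in PEO1 it was 3.91 FPKM in PEO1 and 0.348 in PEA2, with 2.05 in PEO4 and 0.380 in PEA1. In the first set PEA1 was above both PEO lines and PEO4 was close to PEO1, and in the second set PEO4 was above both PEA lines and PEA1 was close to PEA2.

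The windows with the largest differences were chosen as the 8 in each direction with the largest change, no overlap between libraries and 1 Mb between them. Higher in PEA2 were windows in introns of CCL28, a chemokine of mucosal epithelia, and of KATNIP, CDH13, WWOX and CCNJL, the GSTT1 start, an exon of DMRTA1 and a window 220 kb from IRAK1BP1. GSTT1 encodes a glutathione transferase that conjugates small electrophiles, and CDH13 and WWOX encode a cadherin without a cytoplasmic tail and a WW-domain oxidoreductase. The CCL28 window (chr5:43402500-43403500) had 9.34, 7.17 and 8.30 FPKM in PEA2 and 0.101, 0 and 0.111 in PEO1. Its log2 difference was 6.31 (SE 0.30, limma adjusted p = 1.05e-11), while PEA1 had 0.320, 0.374 and 0.863 FPKM and PEO4 0.174, 0.192 and 0. PEA2 was the only line of the 4 with more than 1 FPKM there.

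The window over the GSTT1 start (chr22:24383700-24384700) had 5.5, 5.49 and 4.97 FPKM in PEA2 and no read in any of the 3 PEO1 libraries. PEA1 had 3.40, 2.77 and 2.83 FPKM and PEO4 had no read in any library, so both PEA lines had reads there and neither PEO line had any. Whether the DNA of this window is present in the PEO lines was not tested. At a floor of 3 reads per PEO1 library the level in PEA2 was at least 17.7-fold higher on the deposited scale. The KATNIP window (chr16:27773100-27774100) had 15.8, 11.4 and 12.7 FPKM in PEA2 and 0.101, 0.436 and 0.111 in PEO1, a log2 difference of 6.28 (SE 0.25, limma adjusted p = 2.13e-12). PEA1 had 4.33, 4.83 and 3.16 FPKM there and PEO4 0.291, 0.432 and 0.648, and the other unrelated pair differed the same way with a log2 difference, PEA1 minus PEO4, of 3.84. With the median of its 5 Mb bin removed the KATNIP difference was 4.08.

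Higher in PEO1 were a window 2.79 kb from the FAT1 start, the PABPC5 promoter, introns of MEIS2 and of ACOT1 with HEATR4, and windows near CBLN2, NLGN4X, TAFA2 and the gene annotated as AC010760.1. FAT1 is a giant protocadherin that acts in cell polarity, MEIS2 is a homeobox partner of HOX proteins, and ACOT1 is an acyl-CoA thioesterase. The window near AC010760.1 (chr15:22526100-22527100) had the highest level of the 8, with 47.7, 47.5 and 52.3 FPKM in PEO1 and 0.550, 0.405 and 0.621 in PEA2. PEO4 had 18.5, 21.6 and 17.5 FPKM and PEA1 0.769, 1.03 and 0.815. Its log2 difference was -5.36 (SE 0.17, limma adjusted p = 4.32e-13). The MEIS2 window (chr15:37243800-37244800) had 25.7, 24.3 and 24.6 FPKM in PEO1 and 0.495, 0.173 and 0.222 in PEA2, a log2 difference of -5.28 (SE 0.27, limma adjusted p = 2.05e-11). PEO4 had 8.20, 6.86 and 8.37 FPKM at MEIS2 and PEA1 had 0.288, 0.187 and 0.240, so PEO1 had the highest level, PEO4 an intermediate one, and the PEA lines did not overlap either.

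In all, 13325 promoter windows of protein-coding genes (the window that holds the start) were tested. Of these, 223 were called higher in PEA2 (1.67%) and 402 higher in PEO1 (3.02%). At adjusted p under 0.05 with no limit on size, 2844 were higher in PEA2 (21.3%) and 6555 higher in PEO1 (49.2%). The median log2 difference of the promoter windows was -0.37, against -0.17 over all windows, and was -1.44 on the deposited scale. The largest differences in favour of PEA2 were at GSTT1, CDKN2B, NF2, RIMS1, ZSCAN31 and RANBP3L, and in favour of PEO1 at PABPC5, ACOT1, FAT1, ZNF727, DPP6 and CNTN3.

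**Figure D2:**
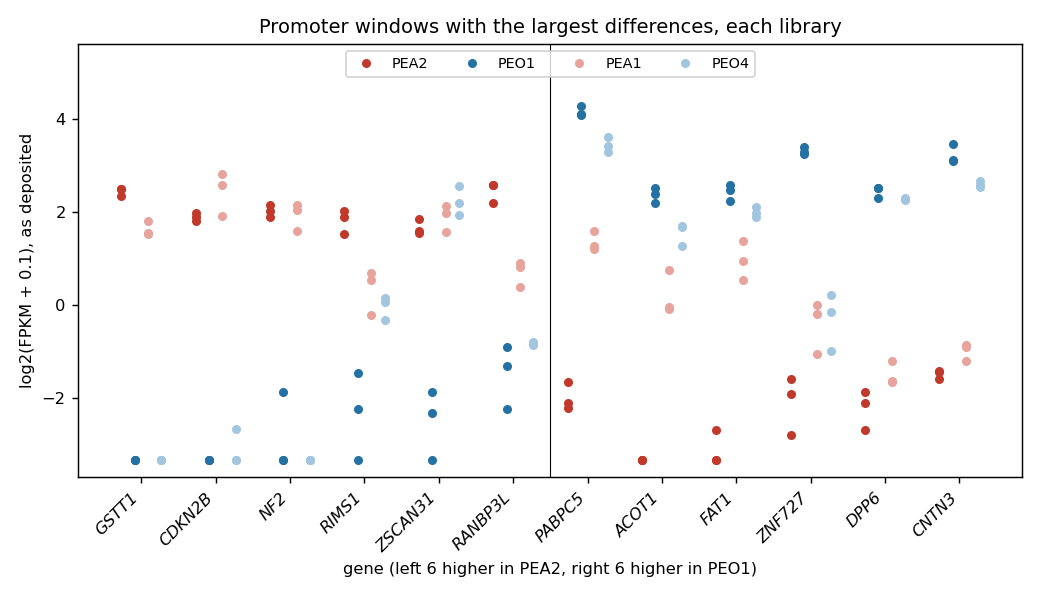
Deposited levels as log2(FPKM + 0.1) in each of the 3 libraries of PEA2, PEO1, PEA1 and PEO4 (points) at the 12 promoter windows with the largest differences between PEA2 and PEO1, named on the x axis. At GSTT1, CDKN2B and NF2 the 3 PEA1 libraries lie with PEA2 and the 3 PEO4 libraries with PEO1, while at ZSCAN31 PEO1 is the only line near 0 FPKM and at FAT1 and ACOT1 PEA2 is.

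CDKN2B encodes an inhibitor of the cyclin D kinases and NF2 encodes merlin, an upstream activator of the Hippo pathway. The CDKN2B promoter window had 3.85, 3.41 and 3.59 FPKM in PEA2 and no read in PEO1. On the deposited scale it was at least 12.1-fold higher in PEA2 at the floor of 3 reads per library. The NF2 window had 4.34, 3.58 and 3.95 FPKM in PEA2 and 0, 0.174 and 0 in PEO1, with a log2 difference of 5.32 (SE 0.34, limma adjusted p = 2.02e-10). PEA1 had 4.0, 4.33 and 2.92 FPKM at NF2 and PEO4 had no read in any library. The 2 PEA lines were high at both promoters and the 2 PEO lines at or near 0. ZSCAN31, a zinc finger gene, went otherwise, with 2.91, 2.83 and 3.51 FPKM in PEA2, 0.101, 0.174 and 0 in PEO1, and 4.48, 5.76 and 3.69 in PEO4.

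Of the promoters higher in PEO1, PABPC5 had 16.8, 17.0 and 19.3 FPKM in PEO1 and 0.220, 0.116 and 0.133 in PEA2. The log2 difference was -5.45 (SE 0.26, limma adjusted p = 1.28e-11) and was -1.92 with the median of its 5 Mb bin removed. ZNF727 had 9.41, 9.68 and 10.4 FPKM in PEO1 and 0.165, 0.231 and 0.0444 in PEA2, and its partners were low as well, with 0.407, 1.06 and 0.797 in PEO4 and 0.769, 0.903 and 0.384 in PEA1. DPP6 and CNTN3, which encode neuronal membrane proteins, were instead high in both PEO lines, with 5.56, 5.58 and 4.79 FPKM in PEO1 and 4.77, 4.80 and 4.68 in PEO4 at DPP6. PEA2 had 0.0550, 0.173 and 0.133 FPKM at DPP6 and PEA1 had 0.224, 0.218 and 0.336. The ACOT1 promoter window had no read in PEA2 and 4.45, 5.58 and 5.13 FPKM in PEO1. On the deposited scale, which leans to PEO1, it was at least 32.2-fold higher in PEO1 at the floor.

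At 2 stretches of neighbouring windows PEO1 or PEA2 had almost no reads. At 9p21 (chr9:21031200-23822200) 28 windows in a row had a PEO1 mean at or under 0.0873 FPKM. The stretch holds the starts of 22 protein-coding genes, among them the type I interferon cluster, MTAP, CDKN2A, CDKN2B and DMRTA1. CDKN2A encodes p16 and p14ARF, which act upstream of RB and p53, and MTAP is an enzyme of methionine salvage. The PEO1 libraries had 0, 14 and 1 reads over the 28 windows, and the PEO4 libraries 1, 1 and 0. The PEA2 libraries had 1418, 1038 and 1573 reads and the PEA1 libraries 2165, 2292 and 1093. The 23 windows that passed the filter did so through PEA2, so that all 23 were called higher in PEA2 follows from the choice of the stretch, and their median log2 difference of 4.81 is a description. The CDKN2A promoter window had 3.24, 2.95 and 3.33 FPKM in PEA2 and 0, 0.262 and 0 in PEO1.

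The reverse was found at 4q35 (chr4:187475400-188524000), where 27 windows in a row had a PEA2 mean at or under 0.0183 FPKM. They include the starts of FAT1 and MTNR1A, the melatonin receptor. The PEA2 libraries had 2, 0 and 0 reads there, the PEO1 libraries 1099, 1197 and 914, and the PEO4 libraries 1175, 1365 and 1388. PEA1 had 646, 683 and 317 reads, so that in this stretch, unlike at 9p21, PEA1 and PEA2 were apart. All 27 windows passed the filter through PEO1 and were called higher in PEO1, which again follows from the choice of the stretch, with a median log2 difference of -4.57 given as a description. Whether the DNA of either stretch is present in the lines with almost no reads was not tested. The same holds for the GSTT1, NF2 and ACOT1 promoter windows. GSTT1 had no read in PEO1 or PEO4, NF2 none in PEO4 and ACOT1 none in PEA2.

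Apart from these stretches, neighbouring windows moved together over much of the genome. Bins of 5 Mb took up 37.1% of the variance of the log2 differences. The highest bin medians were 4.58 on chromosome 9 (20 to 25 Mb, the bin of the 9p21 stretch), 2.35 and 2.31 in neighbouring bins of chromosome 5 (35 to 40 and 30 to 35 Mb). The lowest were -2.31 on chromosome 6 (120 to 125 Mb), -2.12 on chromosome 14 (25 to 30 Mb) and -1.98 on chromosome 14 (40 to 45 Mb). PEA1 minus PEO4 gave 4.75, 1.79 and 1.76 in the 3 highest bins and -1.74, -1.90 and -1.74 in the 3 lowest, so both unrelated pairs had them on the same side. Whole chromosomes ranged from a median of 1.19 for chromosome 20 to -0.96 for chromosome 15. With the median of each bin removed, 4931 windows were called higher in PEA2 and 3988 higher in PEO1. Copy number was not measured here, and its part in these medians was not tested.

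**Figure D3:**
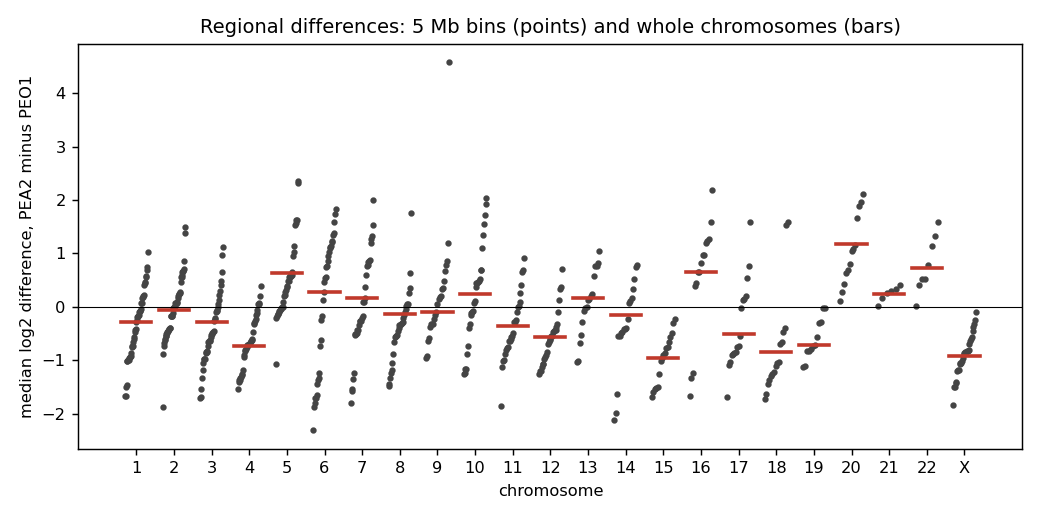
Median log2 difference, PEA2 minus PEO1, of each 5 Mb bin with at least 20 tested windows (points, by chromosome and sorted by value within it) and of each whole chromosome (red bars). Chromosomes 20 and 22 lie above 0 as a whole, with medians of 1.19 and 0.74, chromosomes 15 and X below it, with -0.96 and -0.93, and the bin at 4.58 is that of the 9p21 stretch.

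The genes with most called windows near their start (within 100 kb, nearest start) followed these regions. KRBA1 and ZNF467, neighbouring genes of chromosome 7, had 37 of 43 and 36 of 44 tested windows called higher in PEA2. Over all tested windows 10.2% were called higher in PEA2 and 7.77% higher in PEO1, and the genes were chosen for these counts. ADGRB1 had 36 of 59 and ARC 36 of 55, IL21R, an interleukin receptor gene, had 31 of 31, and FHOD3 and KCNJ12 had 18 of 26 and 18 of 36. DUSP5, a phosphatase of nuclear ERK, had 22 of 43. With the bin medians removed, DUSP5 still had 15 windows called higher in PEA2, FHOD3 had 4, KRBA1 had 2, and ADGRB1, ARC, ZNF467, IL21R and KCNJ12 had 0. Higher in PEO1 were 17 of 18 windows at AC010760.1, 15 of 15 at FAT1, 11 of 30 at NR2F2, 9 of 9 at UNC13C, 8 of 9 at NME3, 8 of 10 at STXBP6, 7 of 7 at GABRG3 and 7 of 8 at L3MBTL4. FAT1 kept 15 called windows with the bin medians removed, NR2F2, a nuclear receptor gene, and UNC13C had 4 each, AC010760.1, GABRG3 and L3MBTL4 had 2 each, NME3 had 1 and STXBP6 had 0.

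The other unrelated pair, PEA1 and PEO4, differed at 4186 windows higher in PEA1 (6.1% of 68644 tested) and 5262 higher in PEO4 (7.67%), together 13.8%, and shares no library with PEA2 and PEO1. The deposited scale gave 1814 and 14886, and removal of GC class medians 4829 and 3080. Of the 8324 windows higher in PEA2 than PEO1, 3114 could be tested in PEA1 and PEO4, and 1057 of them were called higher in PEA1 and 37 higher in PEO4. Of the 6344 higher in PEO1, 3848 could be tested, and 1559 were called higher in PEO4 and 12 higher in PEA1. Taken from the other side, 40.2% of the 2629 windows higher in PEA1 that were tested in both were called higher in PEA2 than PEO1, and 38.4% of the 4055 higher in PEO4 were called higher in PEO1 than PEA2. Across 62558 windows tested in both, the log2 differences of the pairs had a Pearson r of 0.55 and the same sign at 67.8%, as a description across windows of 1 set of lines.

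The difference of the within-pair shifts, PEA2 minus PEA1 less PEO1 minus PEO4, was tested over the 12 libraries of the 4 lines. It was over the threshold at 5288 windows with the higher signed shift in the PEA pair (6.47% of 81671 tested) and 4027 with the higher signed shift in the PEO pair (4.93%), together 11.4%. The counts do not say which pair moved more in size. The deposited scale gave 5857 and 2943, and removal of bin medians 3990 and 1863. Windows were ranked only where the PEA2 and PEO1 libraries did not overlap, in the direction of the difference. Among these the largest difference was in an exon of TGFB1I1 (chr16:31488300-31489300), which encodes HIC-5, a focal adhesion partner of paxillin. PEA2 had 10.3, 6.30 and 7.85 FPKM there and PEA1 0.481, 0.374 and 0.240, while PEO1 had 0.708, 0.873 and 0.892 and PEO4 13.1, 12.6 and 11.9. The resistant line of each pair was high and the sensitive line low, with shifts of 3.82 for PEA2 minus PEA1 and -3.97 for PEO1 minus PEO4. The difference of the shifts was 7.90 on the log2 scale (SE 0.29, limma adjusted p = 1.23e-15). In the other direction was a window in an intron shared by PEG3 and ZIM2, imprinted zinc finger genes (chr19:57350700-57351700). It had 20.6, 20.1 and 19.5 FPKM in PEO1, 0.523, 0.528 and 0.349 in PEO4, 0.550, 0.462 and 0.355 in PEA2 and 3.14, 2.99 and 1.63 in PEA1. Its difference of shifts was -7.38 (SE 0.32, limma adjusted p = 8.64e-15), with the sensitive line high in both pairs.

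Within the pairs, PEA2 differed from PEA1 at 4268 windows higher in PEA2 (6.46% of 66103) and 1857 higher in PEA1 (2.81%), together 9.27%. PEO1 differed from PEO4 at 2848 windows higher in PEO1 (3.67% of 77654) and 3004 higher in PEO4 (3.87%), together 7.54%. These contrasts share no library with each other. Over the 55579 windows tested in both pairs, 2716 were higher in PEA2 and 1215 higher in PEO1, and 319 were both, which is 11.7% of the first set and 26.3% of the second. That number was 723 on the deposited scale, 161 with the GC class medians removed, 132 with the bin medians removed, 21 with a pseudocount of 1 and 7 among windows with a mean over 5 FPKM. Of all 55579 windows 2.19% were higher in PEO1, the background of the 11.7%, and 4.89% were higher in PEA2, the background of the 26.3%. Windows higher in PEA2 and in PEO4, the resistant line of each pair, numbered 37, or 1.36% of the windows higher in PEA2 and 3.59% of those higher in PEO4, where 1.86% of all windows were higher in PEO4 and 4.89% higher in PEA2. There were 45 windows low in both PEA2 and PEO1, or 4.61% of those higher in PEA1 and 4.36% of those higher in PEO4, against 1.86% and 1.76% of all windows. There were 15 windows low in PEA2 and high in PEO1, or 1.54% of those higher in PEA1 and 1.23% of those higher in PEO1, against 2.19% and 1.76%.

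The 319 windows high in PEA2 and PEO1 had a median of 3.74 FPKM in PEA2, 5.18 in PEO1, 0.396 in PEA1 and 0.608 in PEO4, levels that their choice fixes and that are given as a description. A2780 and CP70, a sensitive and a resistant ovarian cancer line of other origin whose libraries the choice did not use, had medians of 0.373 and 0.352 FPKM. They were low elsewhere too, with 0.691 and 0.859 over the windows tested between PEA2 and PEO1. In windows called higher in PEO1 they had 0.362 and 0.349. Of these windows 63.9% were intergenic, 32.3% were in introns and 1.57% were promoters, and their median distance to a start was 109 kb. They lay on 21 chromosomes, and 155 were within 100 kb of the start of 1 of 130 genes. COL22A1, a collagen gene, had 6 such windows, and FEM1C and JAG1, a NOTCH ligand gene, had 3 each. Between PEA2 and PEO1, 18 were called higher in PEA2, 1 was called higher in PEO1 and 300 were not called, against 10.2% and 7.77% of all tested windows. Both lines were high here by choice, so few calls between them follow from the choice and the counts are a description. The 319 windows had a median log2 difference of 0.62 in favour of PEA2, whereas the deposited medians above were higher in PEO1, so the lean between the lines rests on the scale.

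The leading window lies 797 kb from EFNA5, an ephrin ligand gene. It had 6.65, 4.97 and 5.37 FPKM in PEA2 and 6.98, 5.85 and 6.24 in PEO1, while PEA1 had 0.192, 0.218 and 0.0959 and PEO4 0.523, 0.336 and 0.149. Both lines stood apart from their partners by more than the spread of the libraries, which follows from the choice of such windows. The window in an intron of CYB5R4, a cytochrome b5 reductase gene, had 5.77, 5.09 and 4.39 FPKM in PEA2 and 7.89, 7.59 and 6.80 in PEO1, against 0.545, 0.125 and 0.479 in PEA1 and 0.233, 0.192 and 0.349 in PEO4. The direction between PEA2 and PEO1 in this window turned with the scale, with a log2 difference of 0.72 after quantile normalisation and -0.54 on the deposited scale.

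The AP-1 letters TGANTCA, read on both strands, which is the same since the letters are their own reverse complement, were found in 39.3% of all 81609 windows. Every share counts any base at N, so it mixes the consensus words with TGAATCA and TGATTCA. The shares were not split by word. Among the 54965 tested windows that were neither promoter nor CpG-rich, 50.9% held them. Of such windows high in both PEA2 and PEO1, 76.4% held them. The shares were 63.3% of windows higher in PEA2 than PEA1 and 67.8% of those higher in PEO1 than PEO4. They were 39.7% and 28.2% of the windows that went the other way in each pair. The shares of 39.7% and 28.2% rest on only 380 and 744 windows, since each had to pass the filter on PEA2 and PEO1 libraries. Windows low in PEA2 or PEO1 often fail that filter. Their median GC was 51.4% and 57.7%, against 46.6% of the 54965 windows. Between the lines the shares were 46.0% of windows higher in PEA2 than PEO1 and 57.9% of those higher in PEO1, with median GC of 48.2% and 42.1%. Within the 4 GC bands given next, the windows higher in PEA2 had 59.3%, 56.0%, 50.4% and 42.4%. Those higher in PEO1 had 65.0%, 59.5%, 54.6% and 41.0%, so most of the gap was not seen at like GC. The share depends on GC content, and within the 4 GC bands of 30 to 40%, 40 to 45%, 45 to 50% and 50 to 60% the windows high in both held the letters in 80.5%, 80.0%, 75.6% and 66.7%, against 64.0%, 59.0%, 51.3% and 43.1% of all tested windows. Of the 11 other motifs counted, SOX (ACAATG) was at 53.5% against 40.4%, FOX (TGTTTAC) at 20.4% against 13.6%, TEAD (CATTCC) at 53.5% against 50.9%, and CTCF (AGGGGGC) at 12.1% against 17.6%. These other motifs were not compared within GC bands, and the windows high in both had a median GC of 43.1% against 46.6%. SOX was also at 51.9% of windows higher in PEO1 than PEO4 and 46.7% of those higher in PEA2 than PEA1. It was at 47.8% of windows higher in PEO1 than PEA2 and 38.8% of those higher in PEA2 than PEO1. A match describes the letters of a window and not binding.

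**Figure D4:**
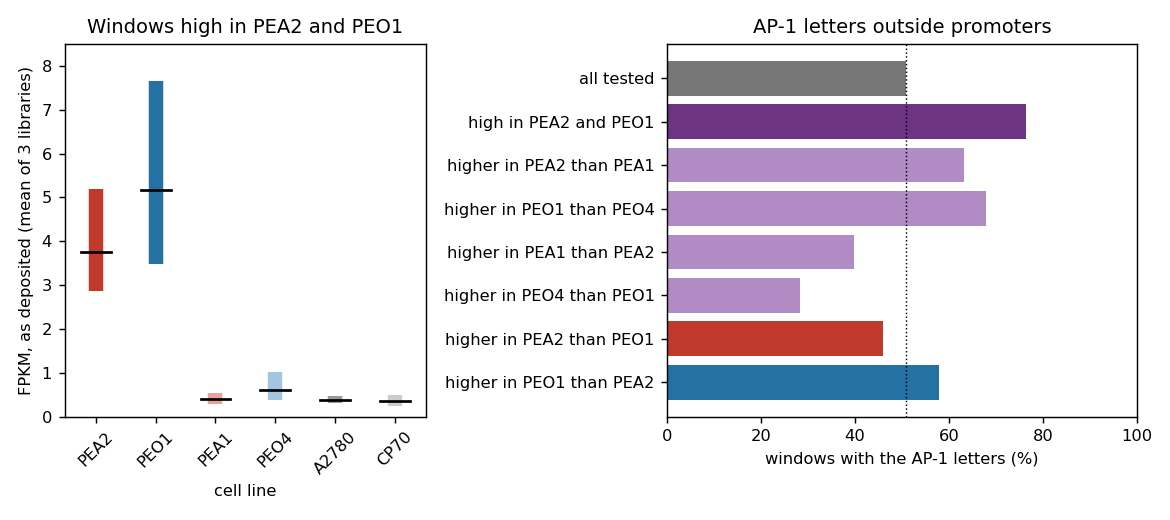
Left, deposited FPKM of the 319 windows high in PEA2 and PEO1 within their pairs, with the median (black line) and the middle quartiles (bar) by cell line. Right, the share of windows outside promoters and CpG-rich sequence that hold the AP-1 letters, with the dotted line at the 50.9% of all tested windows, and 76.4% in the windows high in both lines.

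The promoter windows of genes in 14 lists were then read against the 21.3% higher in PEA2 and 49.2% higher in PEO1 of all promoter windows. Over the lists, 80 listed genes were higher in PEA2 and 152 higher in PEO1 at adjusted p under 0.05. These counts were 24 and 267 on the deposited scale, 55 and 204 with median centring and 93 and 133 with the GC class medians removed, so directions within a list rest on the scaling. With the bin medians removed they were 68 and 102. The TGF-beta and BMP list then had 6 and 5 and the epithelial list 1 and 8, while the AP-1 and TEAD list had 2 and 14. The lineage of the lines was checked with markers of Müllerian and serous carcinoma. PAX8, a transcription factor of the Müllerian tract, had 2.97, 1.97 and 2.48 FPKM in PEA2 and 7.79, 8.55 and 7.36 in PEO1 at its promoter, and WT1, a marker of serous carcinoma, had 4.78, 3.53 and 3.99 and 15.9, 17.5 and 16. EPCAM and KRT7, epithelial markers, also had reads in both lines. EPCAM had 1.65, 2.08 and 2.53 FPKM in PEA2 and 11.2, 10.7 and 11.9 in PEO1. KRT7 had 0.934, 2.31 and 1.51 FPKM in PEA2 and 6.88, 5.93 and 5.02 in PEO1. The median of all tested windows was 1.93 FPKM in PEA2 and 3.13 in PEO1. Other epithelial and mesenchymal markers chosen for this check are not reported here. Of blood, endothelial and mesothelial or fibroblast markers, 2 of 7, 1 of 6 and 3 of 7 had a promoter window that was tested. The promoter windows of PTPRC, CD3E, SPI1, PECAM1, CDH5, TEK, DCN, LUM and COL1A1 were not analysed here.

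**Figure D5:**
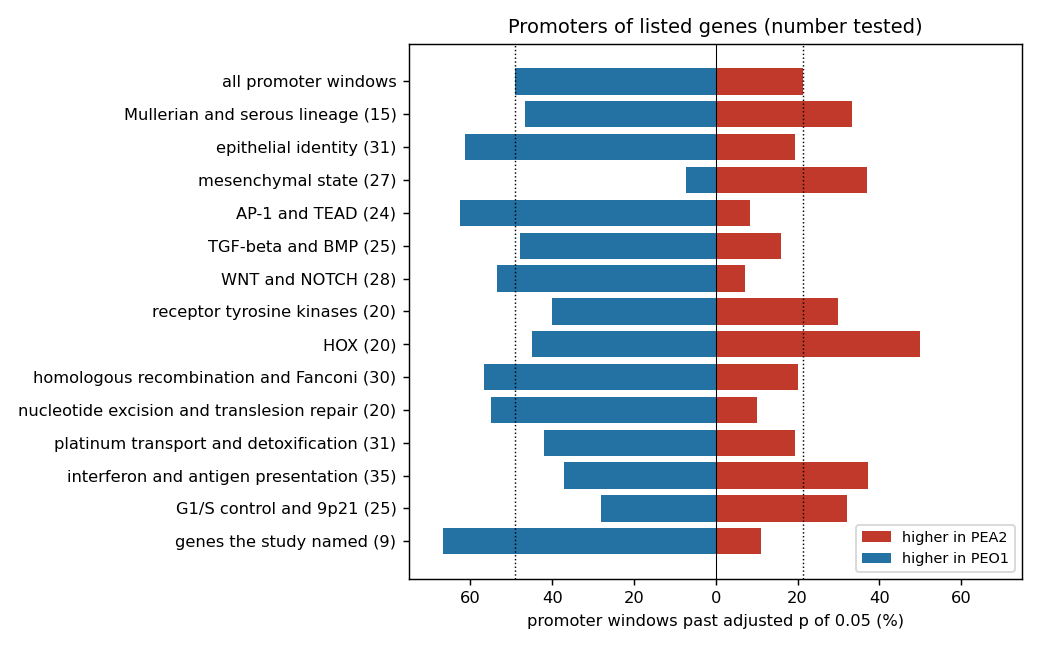
Share of the tested promoter windows of each list (number tested in brackets) that were higher in PEA2 (red, to the right) or higher in PEO1 (blue, to the left) at limma adjusted p under 0.05, with dotted lines at the shares of all promoter windows, 21.3% and 49.2%. The mesenchymal list has 37% higher in PEA2 and 7.41% higher in PEO1, and the AP-1 and TEAD list 8.33% and 62.5%.

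Of the lineage genes, 5 of 15 were higher in PEA2 and 7 higher in PEO1. SOX17, a factor of the Müllerian duct and endoderm, was called higher in PEA2, with 2.42, 1.97 and 2.62 FPKM against 0.708, 0.785 and 0.669 in PEO1 and a log2 difference of 2.13 (SE 0.25, limma adjusted p = 3.57e-07). Called higher in PEO1 were ESR1 and MSLN. ESR1, the oestrogen receptor, had 7.99, 8.20 and 8.36 FPKM in PEO1 and 1.48, 0.867 and 0.799 in PEA2, a log2 difference of -2.02. MSLN, which encodes mesothelin, had 12, 14.7 and 12.9 FPKM in PEO1 and 1.26, 1.10 and 0.843 in PEA2, a log2 difference of -2.50, and PEO4 had a mean of 15.4 FPKM. SOX17 thus had the higher signal in PEA2 and ESR1 and MSLN in PEO1, with no overlap of libraries, and these 3 kept their direction on the deposited scale. The 5 Mb bins of SOX17, ESR1 and MSLN had medians of -1.25, -1.23 and -1.67.

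The epithelial list had 6 of 31 promoters higher in PEA2 and 19 higher in PEO1, near the shares of all promoters, and none was called. The low end was GRHL2, which keeps the epithelial state, with 2.64, 2.83 and 2.75 FPKM in PEA2 and 21.4, 23.6 and 21.5 in PEO1 and a log2 difference of -1.70, and OVOL1 with -1.81. Of the mesenchymal list, 10 of 27 were higher in PEA2 and 2, TCF4 and THY1, higher in PEO1 (TCF4 turned to 0.13 with the bin median removed), whereas the deposited scale gave 4 and 19 and median centring 6 and 7. TGFBI, an extracellular matrix protein induced by TGF-beta, had 5.99, 4.45 and 5.10 FPKM in PEA2 and 1.42, 0.960 and 1.45 in PEO1, a log2 difference of 2.92 (SE 0.19, limma adjusted p = 2.65e-10). COL6A2, a collagen VI chain, and S100A4, a calcium-binding protein of motile cells, were called as well, with 2.32 and 2.07. TGFBI, COL6A2 and S100A4 were higher in PEA2 on the deposited scale too, by 1.95, 1.89 and 1.37.

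The HOX genes, which set position along the body axis, parted by cluster, a grouping made after the values were seen. All 10 tested promoters of the HOXA and HOXD clusters were higher in PEA2, with log2 differences of 0.83 to 4.2, and 9 of the 10 of HOXB and HOXC were higher in PEO1, with -1.69 to -0.45 over all 10. Of the first group 9 of 10 were above 0 on the deposited scale, and of the second none, where the median of all promoter windows was -1.44. HOXD9 had 5.28, 3.76 and 4.97 FPKM in PEA2 and 0.202, 0.436 and 0.334 in PEO1, a log2 difference of 4.2 (SE 0.24, limma adjusted p = 8.28e-11). PEA1 had a mean of 3.37 FPKM at HOXD9 and PEO4 0.462. HOXD8, HOXA4, HOXA13, HOXA6 and HOXD13 were also called higher in PEA2, with 3.25, 3.12, 2.82, 2.46 and 2.35. The largest in favour of PEO1 were HOXC10 with -1.69 and HOXB5 with -1.64. With the bin medians removed the list had 6 promoters higher in PEA2 and 1 higher in PEO1, so the lean of HOXB and HOXC to PEO1 was mostly lost. The 5 Mb bins of the HOXB and HOXC clusters had medians of -1.10 and -0.94.

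In the list of AP-1 and TEAD factors and targets 2 of 24 promoters were higher in PEA2 and 15 higher in PEO1. MAFG, a small MAF protein, was called higher in PEO1, with 23.5, 24.2 and 21.4 FPKM against 2.03, 1.91 and 2.31 in PEA2 and a log2 difference of -2.24 (SE 0.14, limma adjusted p = 1.25e-10). FOSL1 and JUN, AP-1 subunits, were higher in PEO1 with -1.43 and -0.75, and CCN2 and CCN1, targets of YAP and TEAD, with -1.99 and -1.61. BATF3, also of the AP-1 family, was called higher in PEA2 with 2.09. AMOTL2 had 0.27, a direction that reverses under median centring and on the deposited scale. In the WNT and NOTCH list 2 of 28 were higher in PEA2 and 15 higher in PEO1. DKK1, a secreted WNT inhibitor, had 16.3, 16.8 and 15.4 FPKM in PEO1 and 0.714, 0.636 and 0.710 in PEA2, a log2 difference of -3.43 (SE 0.18, limma adjusted p = 2.27e-11), with a mean of 6.21 in PEO4 and 1.73 in PEA1. HEY2 was lower in PEA2 by -1.92, and APC and JAG1 had 0.97 and 0.29, both below 0 on the deposited scale. TGF-beta and BMP genes had 4 of 25 higher in PEA2 and 12 higher in PEO1, led by BMP7 with 1.44, which turned to -0.46 with the bin median removed, and THBS1 with -1.77, and receptor tyrosine kinases 6 and 8 of 20, with KIT called higher in PEA2 at 2.07.

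DNA repair promoters leaned to PEO1, as promoters did in general. Of 30 genes of homologous recombination and the Fanconi pathway, 6 were higher in PEA2 and 17 higher in PEO1, and of 20 of nucleotide excision and translesion repair 2 and 11. With the bin medians removed these counts were 4 and 13, and 1 and 10. XRCC2, a gene of homologous recombination, had 17.7, 18.1 and 17.5 FPKM in PEO1 and 1.65, 1.33 and 1.64 in PEA2, a log2 difference of -2.38 (SE 0.15, limma adjusted p = 1.38e-10), with 7.87 in PEO4. SLX4, a nuclease scaffold, and the translesion polymerase genes REV3L and POLI were called too, with -2.17, -2.12 and -2.06. Most of each of these differences was shared by the region, since their 5 Mb bins had medians of -1.67, -1.34 and -1.29. BRCA1 and BRCA2 were higher in PEO1 with -1.23 and -0.97. RBBP8 with 1.23 and ERCC6 with 0.60 were the largest in the other direction, and both were below 0 on the deposited scale. Of 31 promoters of platinum transport and detoxification, 6 were higher in PEA2 and 13 higher in PEO1, and none was called. ABCB1, a drug efflux pump, had 0.495, 0.809 and 0.621 FPKM in PEA2 and 4.25, 4.80 and 3.57 in PEO1, a log2 difference of -1.96 in favour of the sensitive line. SLC31A1, the copper transporter that also carries cisplatin, had -0.83, ATP7B, a copper export pump, -0.54, GSR -1.90 and ABCC4 1.20. The 5 Mb bin of GSR had a median of -1.48.

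Interferon and antigen presentation genes had 13 of 35 promoters higher in PEA2 and 13 higher in PEO1. CIITA, the activator of class II genes, was called higher in PEO1, with 7.99, 6.81 and 7.91 FPKM against 0.769, 0.809 and 0.488 in PEA2 and a log2 difference of -2.53 (SE 0.24, limma adjusted p = 3.08e-08). B2M was at -1.75 and NLRC5, the activator of class I genes, at 1.41. Of 25 genes of G1/S control and 9p21, 8 were higher in PEA2 and 7 higher in PEO1. The called members in PEA2 were the neighbours CDKN2A, CDKN2B and MTAP of the stretch with almost no reads in PEO1. CDK4, a target of the p16 protein, was called higher in PEO1, with 10.5, 10.9 and 13 FPKM against 1.54, 0.809 and 1.64 in PEA2 and a log2 difference of -2.10 (SE 0.21, limma adjusted p = 6.42e-08), and CCNE1 was at -0.11 and did not pass. Of 9 genes that the study named, chosen on these samples, 1, PARP9, was higher in PEA2 and 6 higher in PEO1, and PARP9 was below 0 on the deposited scale. With the bin medians removed this list had 1 higher in PEA2 and 0 higher in PEO1. Of the markers of other cell types, UPK3B, a mesothelial marker, was called higher in PEO1 with -3.34, while CALB2 had 1.23, CD14 0.53 and KDR 0.78, the last 2 below 0 on the deposited scale with -0.57 and -0.059.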

How the data were processed

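ATAC-seq libraries (3 for each of 6 cell lines) were mapped by the authors with Bowtie2 to hg19, duplicates were removed with Picard, and blacklisted and mitochondrial reads were left out. Tool versions are not given in the sources used here. The deposited values are FPKM in windows of 1 kb, counted with featureCounts and scaled by the authors. Adjacent windows share 101 bp, and each listed window had over 2 FPKM in at least 2 of the 18 libraries. The reads were recovered from the FPKM (100% of values whole within 0.01), and library totals gave the depth. No sequencing interval was needed, and floors of 3 reads per library cover counting error only.

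The labels gave the group and replicate number of each library. Windows with a mean over 1 FPKM in the compared libraries were fitted with limma 3.58.1 (trended empirical Bayes) on quantile-normalised log2(FPKM + 0.1) and called at log2 over 2 and Benjamini-Hochberg adjusted p under 0.001, or adjusted p under 0.05 for listed promoters. A fold change on this scale understates the change of low windows, and where a line has no read it depends on the pseudocount and is no bound. Alternatives changed the scaling, pseudocount, filter, thresholds, block and libraries, and the fit was tested on simulated data. Count models that had been planned were not run, since the deposited unit is FPKM. The exact permutation test was not used, since 3 against 3 libraries cannot go below p = 0.1.

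Annotation came from GENCODE v44 lifted to GRCh37, whose chromosome lengths fit the hg19 windows. For 282 protein-coding genes without a canonical transcript the longest basic one was used, and 13519 of 19811 starts lay in a listed window. Sequences and GC content were read from GRCh37. Named windows were the 8 largest called changes each way with no overlap of libraries and 1 Mb apart, the 6 largest at promoters, the 8 genes with most called windows, the 3 extreme 5 Mb bins each way, the 3 largest differences of shifts and, per list, called members and the 2 largest each way. The differences of shifts were ranked only where the PEA2 and PEO1 libraries did not overlap, in the same direction. Some listed members are not reported here. Other genes of the lists that are named were chosen after their values were seen. The members and lists were chosen with earlier results of these data known.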

Additional observations from a re-analysis of the deposited data

Results flagged for a closer look

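The within-pair shifts of the resistant and sensitive lines were compared directly, and the results below stand out because the shift of the PEA pair and that of the PEO pair differed in limma's test of the difference. The test passed at 5288 windows with the higher signed PEA2 minus PEA1 shift and 4027 with the higher signed PEO1 minus PEO4 shift. Windows were ranked only where the PEA2 and PEO1 libraries did not overlap and lay apart in the direction of the difference. Larger differences that rest on PEA1 and PEO4 may thus be missing. Among the ranked windows, at least 1 Mb apart, the largest in the first direction was 7.90 in an exon of TGFB1I1. Next were 7.24, 462 kb from CADM1, a cell adhesion gene, and 6.75 in an intron of ZRANB3, a helicase of fork remodelling. At the CADM1 window PEA2 had 7.53, 4.97 and 6.52 FPKM and PEO4 2.85, 2.64 and 2.29, while PEA1 had 0.288, 0.249 and 0.0959 and PEO1 0.405, 0.262 and 0.557. In the second direction the largest was -7.38 in the PEG3 and ZIM2 intron. Then came -6.51 in a window 72.6 kb from ZNF722 and -6.23 in an intron of FAT1. At the ZNF722 window PEO1 had 27.8, 27 and 26.3 FPKM and PEO4 0.698, 0.672 and 0.847, while PEA2 had 1.81, 1.04 and 0.976 and PEA1 3.75, 4.39 and 3.55. The FAT1 window lies in the 4q35 stretch with almost no PEA2 reads.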

How the results depend on the processing

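Of the named windows and promoters under the alternatives, 1324 values kept their direction and side of the threshold, 51 fell short of it, 0 newly passed and 25 reversed. On the deposited FPKM the windows higher in PEA2 and in PEO1 numbered 4654 and 16538, those higher in PEA1 and in PEO4 1814 and 14886, those high in both PEA2 and PEO1 723, and the listed promoters 24 and 267. With bin medians removed they were 4931 and 3988 for PEA2 and PEO1, 3452 for PEO4, 1863 for the shift of the PEO pair and 132 for windows high in both. With GC class medians removed 3080 were higher in PEO4 and 161 high in both, and the split of PEA1 and PEO4 was 4829 and 3080. A pseudocount of 1 gave 1813 and 847 for PEA2 and PEO1, 795 and 521 for PEA1 and PEO4, 1326 and 720 for the shifts and 21 high in both. A mean over 5 FPKM gave 190 and 833, 39 and 485, 337 and 420, 7 high in both, and 25 and 93 listed promoters, with fewer windows tested. Thresholds of log2 over 1 and adjusted p under 0.05 gave 17597 and 20081, 11559 and 15037, and 16096 and 16907. The deposited shifts gave 5857 and 2943, and with bin medians removed 3990 and 1863. Except where the construction shows it, the cause was not tested. Leaving out each replicate gave 7482 to 8210 and 5332 to 7042 windows for PEA2 and PEO1, 3521 to 4360 and 4617 to 5937 for PEA1 and PEO4, 4910 to 5818 and 3635 to 4405 for the shifts, 279 to 345 high in both, and 67 to 83 and 135 to 156 listed promoters. The replicate block gave 8325 and 6346 windows and 80 and 151 listed promoters, and same-numbered libraries had correlations of 0.0081, 0.033 and -0.0030, so the numbers do not pair the libraries. Alternatives for the windows high in both were chosen after seeing the data. The planned edgeR, DESeq2 and voom fits were not run.

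Reversed on the deposited scale were MARVELD3 (-0.049), AMOTL2 (-1.22), APC (-0.29), JAG1 (-1.30), RBBP8 (-0.18), RAD51D (-0.040), ERCC6 (-0.83), ERCC8 (-1.22), NFE2L2 (-0.27), PARP9 (-0.40), CD14 (-0.57) and KDR (-0.059). Median centring reversed AMOTL2 (-0.54), JAG1 (-0.62), ERCC6 (-0.15) and ERCC8 (-0.54). With bin medians removed MARVELD3 (-0.28), TCF4 (0.13), AMOTL2 (-0.86), BMP7 (-0.46), JAG1 (-0.41), RBBP8 (-0.31), RAD51D (-0.011), NFE2L2 (-0.42) and E2F2 (0.0056) reversed.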
